A study of Bos taurus with 4 samples.

Results

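The proteasome is the complex that degrades ubiquitin-tagged proteins, and its subunits are encoded by genes whose symbols begin with PSM. The genes described here were chosen by symbol alone. They are those of the array whose annotated symbol begins with PSMA, PSMB, PSMC, PSMD, PSME, PSMF or PSMG followed by a digit, with POMP added. The rule matched 80 of the 43794 bovine probes, for 48 genes. Of these genes, 41 could be measured, among 7795 measured genes in all.

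The samples were germinal vesicle stage oocytes of Holstein cows, denuded from cumulus-oocyte complexes of slaughterhouse ovaries kept on ice. These are oocytes arrested before meiotic maturation. RNA of 4 pools of 200 oocytes, freed of ribosomal RNA, was bound to oligo-dT beads and split by poly(A) tail length. The A- fraction, labelled as tails of at most 50 nucleotides, came from the flow-through and washes, and the A150 fraction, labelled as tails of at least 150 nucleotides, was eluted at 75 °C after a first elution at 42 °C, which was not analysed here. Both fractions of a pool were amplified and hybridised to 1 array, with A150 labelled in Cy5 on the first pair (arrays 1 and 2) and in Cy3 on the second pair (arrays 3 and 4). There was no untreated or other control group, since each pool serves as its own comparison. Every value below is a log2 ratio of A150 over A- unless said otherwise, so that a positive value means more signal in the long-tailed fraction and a negative value more in the short-tailed fraction.

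The core particle is a barrel of stacked rings, with outer rings of alpha subunits (PSMA) that gate the entry and inner rings of beta subunits (PSMB), some of which cut proteins. The regulatory particle caps the barrel. Its base holds the ATPase ring (PSMC) that unfolds and threads substrates and large PSMD scaffold and receptor proteins, and its PSMD lid removes ubiquitin chains. In oocytes the proteasome acts with the anaphase-promoting complex to destroy cyclin B and securin at meiotic divisions. A fully grown oocyte makes little new RNA, and the length of the poly(A) tail of its stored mRNAs is closely tied to whether they are translated.

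The pools carried oocyte RNA. Of 15 oocyte markers such as GDF9 and ZP3, 14 had a probe and all 14 of these were measured, at a median signal percentile of 95.5 among all bovine probes. Of 16 cumulus and granulosa markers 4 were measured: INHBA, CYP19A1, STAR and PTX3, at percentiles of 47.5, 57.2, 97.6 and 70.7. The median over the 16 was 27.8, and only STAR was above background on all 4 arrays. The defining markers FSHR, AMH, FOXL2 and AMHR2 were above background on 0 arrays. Of 7 blood and stroma markers 3 were measured and 0 were above background on all 4 arrays. The arrays were unequal: the share of all bovine probes above background in A150 was 40.9%, 9.96%, 42.6% and 60.6% on arrays 1 to 4, and in A- 48.7%, 30.5%, 22.0% and 34.3%. Across kept probes the ratios of array pairs correlated weakly, with Pearson's r of 0.286 and 0.324 for the pairs of the same dye orientation and 0.120 to 0.286 for pairs of opposite orientation. These correlations run across probes, which are not independent replicates.

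Proteasome mRNAs lay toward the long-tailed fraction more often than not, with a wide spread between genes and between pools. The mean over the 4 arrays was above 0 for 26 of the 41 measured genes, or 63.4%, against 50.6% of all genes tested. A gene could pass the filter through either fraction. For 11 members only A150 was above background on 3 or more arrays, and for 5 only A-. The shares therefore draw in part on members kept through the fraction where they were bright. The median of the 41 genes was 0.87, 0.45, 0.20 and 0.32 on arrays 1 to 4, a mean of 0.46 ± 0.29 (SD, n = 4 arrays) or 1.38-fold. All genes tested had medians of -0.02, -0.06, 0.17 and 0.12 on the same arrays. The proteasome median was therefore the higher on each array, by 0.89, 0.52, 0.03 and 0.20, and on array 3 the difference was close to 0. In pools of whole oocytes, fewer oocytes carrying an mRNA in a fraction and less of it per oocyte cannot be told apart.

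No single proteasome gene passed the test after adjustment. The limma test of the mean ratio against 0, adjusted by Benjamini-Hochberg over all 7795 genes, called 0 genes of the whole array (0%) and so 0 members at the threshold of 0.05. Before adjustment, 11 members with p under 0.05 lay toward A150, or 26.8%, against a background of 9.72% of all genes, and 1 member toward A-, or 2.44%, against 4.19%. Of those toward A150, POMP, PSMB6, PSMC1, PSMD10 and PSMD2 had A- above background on only 1 or 2 arrays. The ratio was above 0 on all 4 arrays for 10 members, where 13.7% of all genes did the same, and below 0 on all 4 arrays for 2 members, PSMA2 and PSMD11, where the background was 8.89%. The other 29 members had both signs. Over single probes, 12 of 19453 passed an adjusted p under 0.05 (0.0617%), and 0 of the 61 kept proteasome probes were among them. Without the filter on dim probes all 48 genes could be counted: 32 had a mean above 0, or 66.7% against 50.5% of 15216 genes, 12 lay toward A150 at an unadjusted p under 0.05, or 25.0% against 6.62%, and 1 toward A-, where 3.13% of all genes did.

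**Figure D1:**
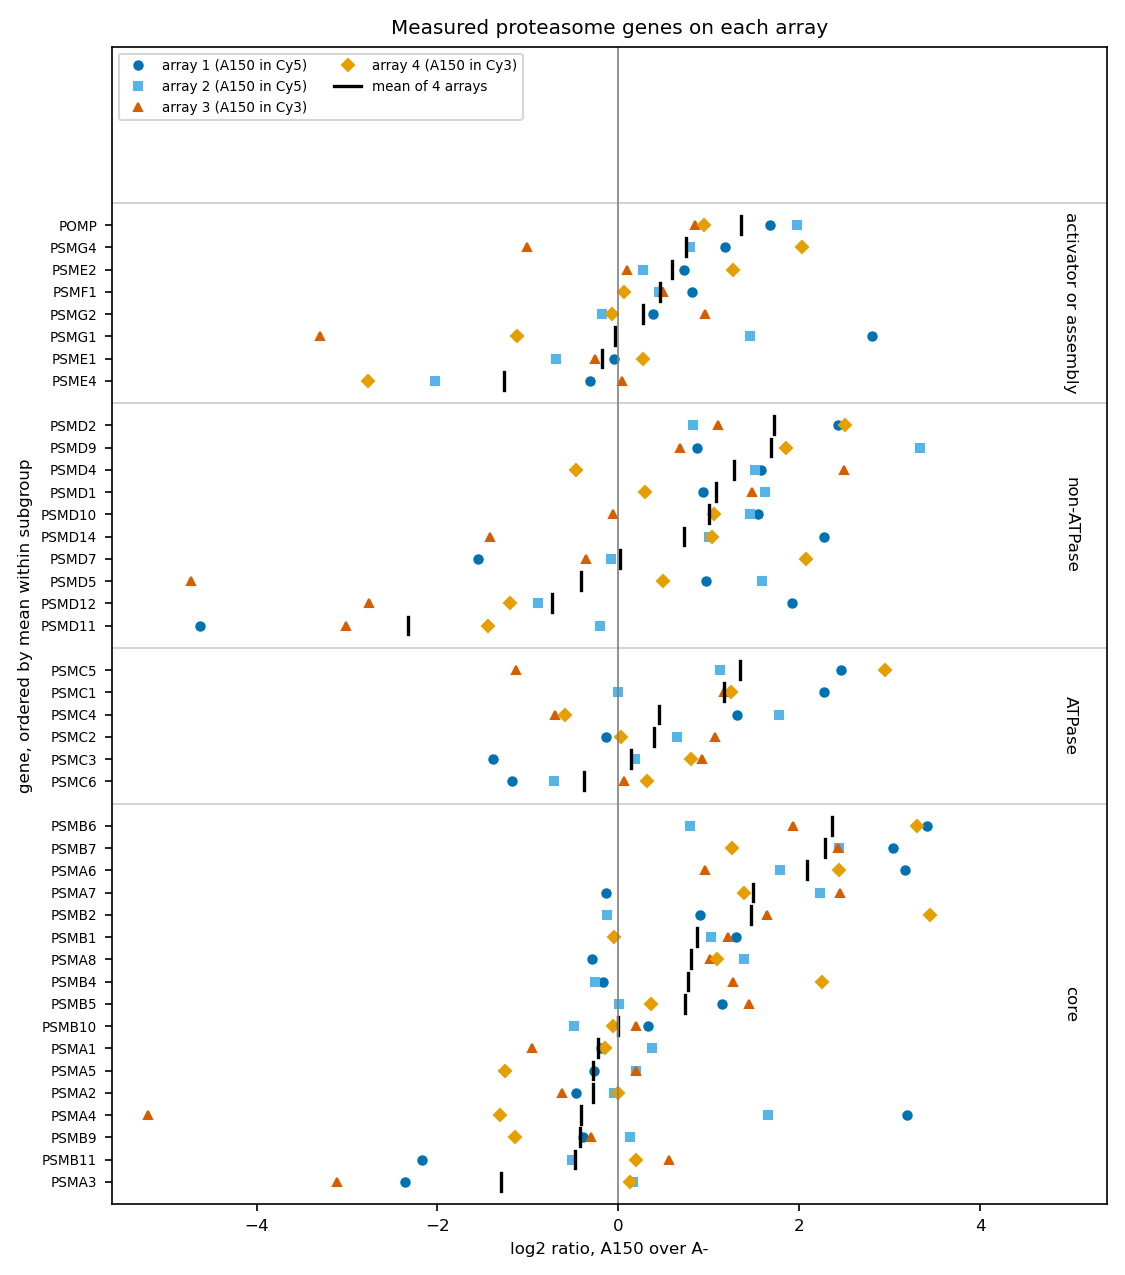
Log2 ratio of A150 over A- (horizontal axis) for each of the 41 measured proteasome genes, in 4 subgroups ordered by mean. Each gene has 1 point per array, coloured by array, and a black tick for the mean of the 4 arrays; PSMB7, PSMA6 and PSMB6 lie right of 0 on every array, PSMD11 lies left of 0 on every array, and PSMA4 spans from -5.20 to 3.19.

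The catalytic beta subunits had ratios of unequal size, which were not tested against each other. PSMB7, the subunit with trypsin-like activity, had ratios of 3.03, 2.44, 2.43 and 1.25 on arrays 1 to 4. All 4 pools held more of its signal in A150, 4.88-fold on average (2.29 ± 0.75, SD; 95% confidence interval 1.36 to 3.22; limma adjusted p = 0.119). PSMB6, the subunit with caspase-like activity, gave 3.41, 0.80, 1.93 and 3.30. Its array 2 value stood below the other 3, and neither of its fractions was above background there. Its mean of 2.36 ± 1.24 was the highest of the 41 genes (5.13-fold, limma adjusted p = 0.155). PSMB5, which carries the chymotrypsin-like activity, gave 1.14, 0.01, 1.44 and 0.36 (0.74 ± 0.67, limma adjusted p = 0.437). Neither of its fractions was above background on array 2, so the ratio of 0.01 does not show equal amounts. On the other arrays it was only moderately higher in A150. These values are of the brightest probe: the other probes of PSMB7 gave means of 0.90 and 0.88 and that of PSMB6 0.99, close to PSMB5.

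The subunits that replace these catalytic subunits in the immunoproteasome, a form induced by interferon that favours the production of antigenic peptides, lay near or below 0. PSMB9, which replaces PSMB6, gave -0.39, 0.13, -0.30 and -1.15 (-0.43 ± 0.53, limma adjusted p = 0.626). PSMB10, which replaces PSMB7, gave 0.33, -0.49, 0.19 and -0.06 (-0.01 ± 0.36, limma adjusted p = 0.993). Both had values on either side of 0, and both were dim, in the lowest 25.9% and 7.77% of measured genes by signal. PSMB8, which replaces PSMB5, was not measured, its probe being above background on at most 2 arrays. No test was made of PSMB6 against PSMB9 or of PSMB7 against PSMB10. PSMB11, the form of the thymus, had a mean of -0.48 ± 1.21 and changed sign between the dye orientations.

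Among the structural beta subunits PSMB1 lay at 1.30, 1.02, 1.21 and -0.05 (0.87 ± 0.63), above 0 on 3 of the arrays. PSMB4 gave means of -0.22 on arrays 1 and 2 and 1.75 on arrays 3 and 4, so that the direction of its brightest probe followed the array pair. Of its other kept probes, 1 had a mean of 0.20. The other had a mean of 1.55 and was above 0 on all 4 arrays, with A- above background on 0. For PSMB2 the A- fraction was above background on 0 arrays and A150 on 3. Its measured mean was 1.47 ± 1.51 (limma adjusted p = 0.395). The limma confidence interval of -0.11 to 3.05 includes 0. Array 2 gave -0.12, but neither of its fractions was above background there. With A- held at a floor signal the mean was 2.42-fold higher in A150, which is an estimate and not a lower bound. The 9 measured PSMB genes together had medians of 0.90, 0.01, 1.26 and 0.36 (0.63 ± 0.56), and 6 of the 9 had a mean above 0.

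The alpha subunits were led by one gene. PSMA6 gave 3.17, 1.78, 0.96 and 2.44, higher in A150 in all 4 pools by 4.26-fold on average (2.09 ± 0.94, limma adjusted p = 0.134). Both of its fractions exceeded background on every array, and its second probe gave a mean of 2.18. At the other end PSMA3, the alpha subunit with the lowest mean, gave -2.36, 0.16, -3.11 and 0.13. Its arrays fell into 2 that favoured A- strongly and 2 near 0, each kind present in both dye orientations (-1.30 ± 1.69, limma adjusted p = 0.499).

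PSMA2 gave -0.46, -0.05, -0.62 and -0.01, below 0 on each array but by little (-0.29 ± 0.31, limma adjusted p = 0.699); its other kept probes gave means of 0.27 and -0.08. PSMA7 lay at -0.14, 2.23, 2.45 and 1.39 (1.48 ± 1.17), toward A150 in 3 pools. PSMA8, the form that replaces PSMA7 in germ cells of the mouse testis, was above background in A- on 0 arrays and in A150 on 3. Its mean of 0.80 ± 0.75, or 1.74-fold, is an estimate and not a lower bound (limma adjusted p = 0.434). The limma confidence interval of -0.13 to 1.73 includes 0. Array 1 gave -0.30, but neither of its fractions was above background there. PSMA4 was the most uneven of all members, at 3.19, 1.66, -5.20 and -1.31. It lay toward A150 on arrays 1 and 2 and toward A- on arrays 3 and 4, where the dyes were swapped. On array 2 neither of its fractions was above background. PSMA1 and PSMA5 lay near 0, with means of -0.23 and -0.28. The 8 measured PSMA genes had medians of -0.23, 0.88, -0.21 and 0.06 (0.12 ± 0.52), with 3 means above 0.

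The ATPases had the steadiest median, at 0.58, 0.42, 0.49 and 0.56 on the 4 arrays (0.51 ± 0.07, 6 genes measured), although its genes differed from each other. The size of this median depended on the processing, from 0.32 with spot medians to 0.96 with median centring in place of loess. PSMC5 had the highest mean and gave 2.46, 1.12, -1.14 and 2.95, against A150 on array 3 alone (1.35 ± 1.83, limma adjusted p = 0.512). PSMC6 had the lowest and gave -1.18, -0.71, 0.06 and 0.32, with opposite signs in the 2 dye orientations (-0.38 ± 0.69, limma adjusted p = 0.709). Its second kept probe was below 0 on every array, at -0.60, -0.09, -0.10 and -0.56. PSMC1 lay at 2.27, 0.00, 1.16 and 1.24 (1.17 ± 0.93), toward A150 on arrays 1, 3 and 4. On array 2 neither of its fractions was above background, and A- was above it on 1 array only. The means of PSMC2, PSMC3 and PSMC4 were 0.40, 0.13 and 0.45. Of the 6 ATPase genes, 5 had a mean above 0 and 0 had the same sign on all 4 arrays.

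The non-ATPase subunits held both the members most clearly toward A150 in the regulatory particle and the one most toward A-. PSMD2, a scaffold of the base that docks ubiquitin shuttle proteins, gave 2.43, 0.82, 1.10 and 2.50. All ratios were above 0, 3.28-fold on average (1.71 ± 0.88, limma adjusted p = 0.169), with A- above background on 1 array. On array 2 neither fraction was above background. The other 2 kept probes of PSMD2 gave 0.33 and -0.07. PSMD1, the other large scaffold of the base, gave 0.93, 1.62, 1.48 and 0.30, higher in A150 in each pool (1.08 ± 0.60, limma adjusted p = 0.244). PSMD4, a ubiquitin receptor, lay at 1.58, 1.51, 2.50 and -0.47, toward A150 except on array 4, and its other kept probe had a mean of 0.23.

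In the lid, PSMD11, which helps to fasten the lid to the core, gave -4.63, -0.20, -3.01 and -1.44. The ratio was below 0 on each array, 5.00-fold toward A- on average (-2.32 ± 1.92, limma adjusted p = 0.284). Its size ranged from near 0 on array 2, where neither fraction was above background, to the lowest ratio of any member on array 1. The second probe of PSMD11 gave -0.51. PSMD14, the deubiquitinase that cuts ubiquitin chains from substrates, gave 2.28, 1.0, -1.42 and 1.04, toward A150 except on array 3 (0.72 ± 1.55, limma adjusted p = 0.696). PSMD12 lay at 1.92, -0.89, -2.76 and -1.20, and PSMD7, the partner of PSMD14, at -1.56, -0.08, -0.36 and 2.07; neither kept one direction.

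Sorting the PSMD genes by their place in the particle, a split made from textbook roles after their values were known, the base genes PSMD1, PSMD2 and PSMD4 had medians of 1.58, 1.51, 1.48 and 0.30 (1.22 ± 0.61). The lid genes PSMD7, PSMD11, PSMD12 and PSMD14 had medians of 0.18, -0.14, -2.09 and -0.08 (-0.53 ± 1.05). The base minus the lid was 1.39, 1.65, 3.57 and 0.38 (1.75 ± 1.33), and this difference was not tested. It was made with the brightest probe of each gene. Over all kept probes the means of PSMD2 and PSMD4 were 0.66 and 0.75, and that of PSMD11 was -1.41. How the difference changes with these was not tested. The difference depended on which genes stood for the lid. SEM1, a small lid subunit outside the symbol rule, gave 1.28, 2.51, -2.26 and 1.19, and with it the difference was 0.29, 1.59, 3.74 and -0.74 (1.22 ± 1.93), so that the lid was the higher on array 4. The lid genes PSMD3, PSMD6 and PSMD8 did not pass the filter, and without it their means were 0.18, 0.80 and 0.94.

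Of the assembly factors, PSMD9, POMP and PSMD10 had the highest means, all toward A150. POMP, the chaperone that guides the beta ring into place and is the first substrate of the finished core, gave 1.67, 1.97, 0.85 and 0.94. Its ratios were above 0 on every array, 2.56-fold on average (1.36 ± 0.55, limma adjusted p = 0.16), with A- above background on 1 array. The largest ratio, on array 2, came where neither of its fractions was above background. PSMD9, a chaperone of the base, gave 0.87, 3.33, 0.68 and 1.85, above 0 in each pool and highest in pool 2 (1.68 ± 1.21, limma adjusted p = 0.257). PSMD10, another base chaperone also known as gankyrin, lay at 1.54, 1.45, -0.06 and 1.06, with neither of its fractions above background on array 2.

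PSMG1 and PSMG2 form a pair that builds the alpha ring. PSMG2 was near level, at a mean of 0.27 ± 0.52, and PSMG4, of the partner pair, had a mean of 0.75 ± 1.28. PSMG1 gave 2.80, 1.45, -3.30 and -1.12, with opposite signs in the 2 dye orientations. Its 4 kept probes were all above 0 on arrays 1 and 2 and all below 0 on array 3, and on array 4 the 3 with a negative value included the brightest. PSMD5, another base chaperone, was low on array 3 alone, at 0.97, 1.58, -4.72 and 0.49. The 7 measured assembly factors of the symbol rule (POMP, the PSMG genes, PSMD5, PSMD9 and PSMD10, again sorted after their values were known) had medians of 1.18, 1.45, -0.06 and 0.94 (0.88 ± 0.66). Of these 7, 5 had a mean above 0, beside 50.6% of all genes. PSMG3 did not pass the filter, and without the filter its mean was -0.05. PAAF1, a base assembly factor outside the rule, had a mean of 0.35 ± 0.68, and with it the median was 0.92 ± 0.48.

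The activators and the inhibitor lay nearer to 0. PSMF1, an inhibitor of the core in test-tube assays, gave 0.81, 0.45, 0.50 and 0.06, slightly above 0 on each array (0.45 ± 0.31, limma adjusted p = 0.532). Neither of its fractions was above background on array 2. PSME2 and PSME1 form an activator cap that is induced by interferon. PSME2 gave 0.72, 0.27, 0.10 and 1.26 (0.59 ± 0.52, limma adjusted p = 0.487), while PSME1 had a mean of -0.18 ± 0.40. PSME4, the activator linked to histone degradation in mouse spermatids, gave -0.32, -2.02, 0.04 and -2.76. It was level on 1 array of each dye orientation and toward A- on the other (-1.27 ± 1.34, limma adjusted p = 0.416). The 4 genes had medians of 0.34, -0.21, 0.07 and 0.16 (0.09 ± 0.23).

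**Figure D2:**
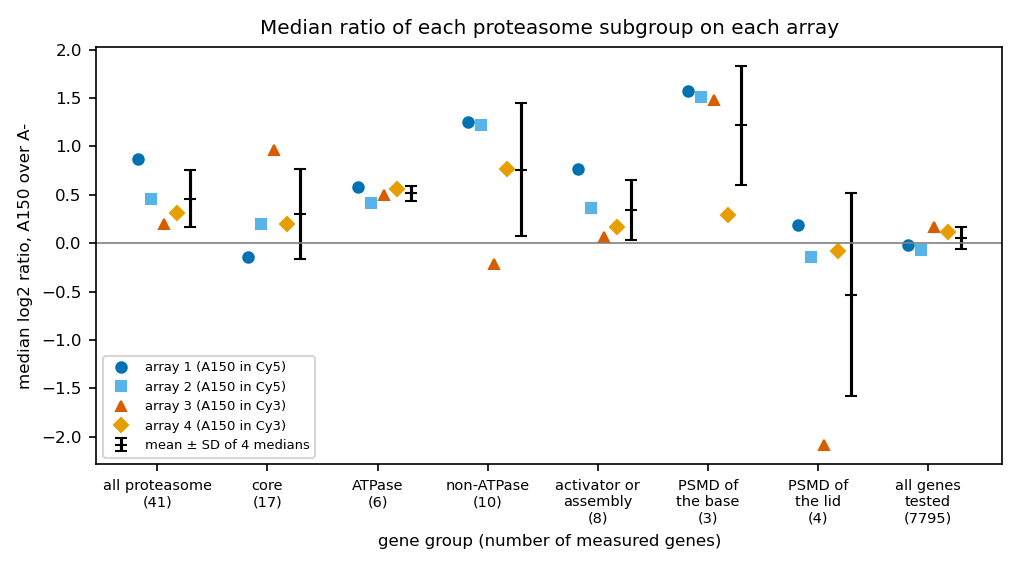
Median log2 ratio of A150 over A- on each of the 4 arrays for the measured proteasome genes, their subgroups, the PSMD genes of the base and of the lid, and all genes tested; points are arrays and bars are the mean and SD over arrays. The ATPase medians sit together between 0.42 and 0.58, while the non-ATPase medians run from -0.21 on array 3 to 1.26 on array 1.

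The 4 subgroups differed by less than the spread between arrays. The core genes had medians of -0.14, 0.20, 0.96 and 0.20 (0.30 ± 0.46, 17 genes) and the non-ATPase genes 1.26, 1.22, -0.21 and 0.76 (0.76 ± 0.69, 10 genes). The core minus the non-ATPase median was -1.39, -1.03, 1.17 and -0.57, a mean of -0.45 ± 1.14 that was smaller than its spread and changed sign on array 3. The activator or assembly genes had medians of 0.77, 0.36, 0.07 and 0.16 (0.34 ± 0.31, 8 genes). The order also depended on the genes and arrays used: over genes with both fractions above background the core median was 0.80 and the non-ATPase median 0.41, and without array 3 they were 0.085 and 1.08. The activator or assembly median was 0.20 without array 1. Core minus ATPase was -0.21 ± 0.50 and core minus activator or assembly -0.04 ± 0.74. No p is given for these differences, and an exact test of 4 arrays could not go below 0.125. Means were above 0 for 9 of 17 core genes, 5 of 6 ATPase genes, 7 of 10 non-ATPase genes and 5 of 8 activator or assembly genes, beside 50.6% of all genes.

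Signal against background differed between the fractions for these genes. A150 was above background on all 4 arrays for 39.0% of the measured members and 19.4% of all genes, and A- for 26.8% and 26.0%. Both fractions were this clear of background for 8 members: PSMA3, PSMA6, PSMB4, PSMC2, PSMC5, PSMD1, PSMD14 and PSMD5. In a fit of such genes alone, 6 of the 8 had a mean above 0, beside 58.9% of 956 genes, and 2 lay toward A150 at an unadjusted limma p under 0.05, beside 18.8%. The median of the gene means in this fit was 0.75 for the 8 members and 0.31 for all 956 genes. These shares and medians rest on 8 members, and no difference from all genes was tested. For 11 members only A150 was above background on 3 or more arrays and for 5 only A-, so many ratios set a measured fraction against one near the background level. On array 2, 18 of the members were above background in A150 and 23 in A-, and some had neither fraction above it. Among these were POMP, PSMA4, PSMB2, PSMB5, PSMB6, PSMC1, PSMD2, PSMD7, PSMD10, PSMD11 and PSMF1, whose ratios on that array rest on no detected signal.

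**Figure D3:**
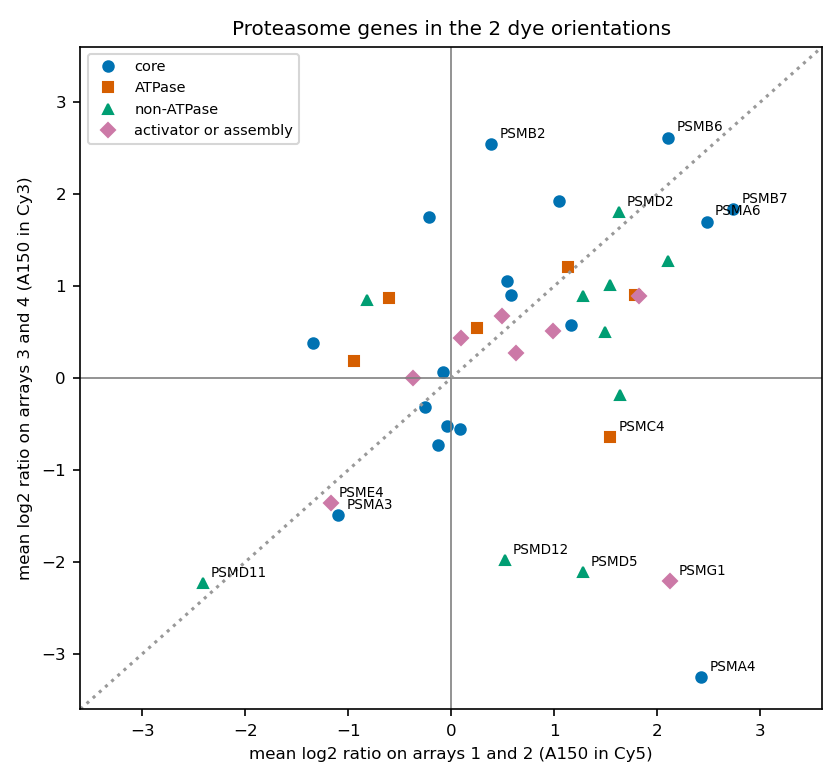
Mean log2 ratio of A150 over A- on arrays 1 and 2 (horizontal axis) against arrays 3 and 4 (vertical axis), 1 point per measured proteasome gene, coloured by subgroup; the dotted line marks equal values. PSMB6, PSMB7, PSMA6 and PSMD2 lie in the upper right and PSMD11 in the lower left, while PSMA4, PSMG1, PSMD5 and PSMD12 lie in the lower right, positive in one dye orientation and negative in the other.

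The direction depended on the array pair for part of the family. The mean of arrays 1 and 2 and the mean of arrays 3 and 4 had opposite signs for 14 of 41 members, or 34.1%, beside 44.9% of all genes. Array pair and dye orientation are the same split and cannot be told apart. Array 3 had the most members below -1, 9, and array 2 the fewest, 1. Leaving out array 3 took PSMD5 from -0.42 to 1.02, PSMA4 from -0.41 to 1.18 and PSMG1 from -0.04 to 1.04. With each array left out in turn, the mean kept its sign for 32 members and changed it for 9, namely PSMA1, PSMA4, PSMA5, PSMB10, PSMB11, PSMC3, PSMD5, PSMD7 and PSMG1. POMP, PSMA6, PSMB6, PSMB7 and PSMD2 had an unadjusted p under 0.05 in each of the 4 fits, whereas PSMD11 did in 1 of them.

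**Figure D4:**
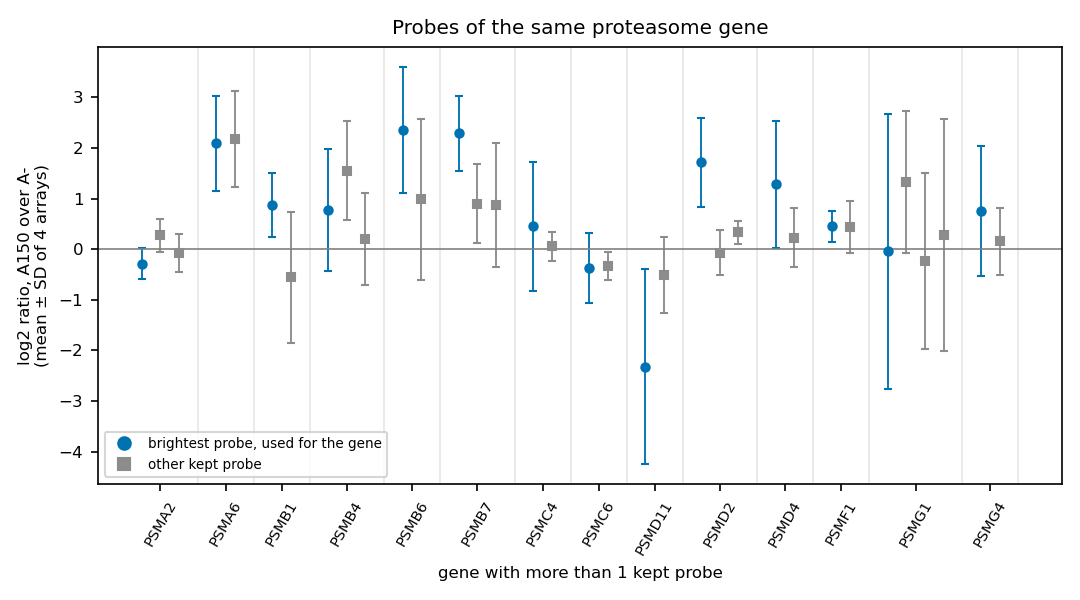
Log2 ratio of A150 over A- (vertical axis, mean and SD of 4 arrays) of each kept probe of the 14 proteasome genes with more than 1 kept probe; the blue circle is the brightest probe, which stands for its gene, and grey squares are the others. The probes of PSMA6 lie together at 2.09 and 2.18, whereas the other probes of PSMB6, PSMB7 and PSMD2 lie below the brightest one.

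Where a gene had several probes they often differed in size. All kept probes shared a sign for 10 of the 14 members with more than 1, or 71.4%, and for 55.3% of the 1622 such genes on the whole array. The other probes of PSMB7 and PSMB6 lay below the brightest one. PSMB1's other probe gave -0.56 against 0.87. Where along the mRNA a probe lies, and whether it binds other transcripts, was not analysed here.

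Genes that work with the proteasome had medians on either side of 0. Of 35 such genes listed (ubiquitin genes, shuttle factors, proteasome-bound deubiquitinases, the VCP segregase with its cofactors, and regulators of proteasome gene transcription), 27 had a probe and 21 were measured. Their medians were -0.85, 0.25, -0.14 and 0.57 (-0.04 ± 0.61). Means were above 0 for 10, or 47.6% beside 50.6% of all genes, and below 0 for 11. At an unadjusted limma p under 0.05, 0 lay toward A-, beside 4.19% of all genes. Toward A150 lay 1 gene, or 4.76% beside 9.72% of all genes. That gene was UFD1, a cofactor through which VCP pulls out ubiquitin-tagged proteins, at 1.79, 0.84, 1.12 and 2.69 (1.61 ± 0.83, limma adjusted p = 0.173). ADRM1, the ubiquitin receptor docked on PSMD1, gave -0.16, 2.29, 1.16 and -0.15, with no common direction. ZFAND5, an activator of the proteasome, gave -2.11, -1.53, -1.47 and 0.78. NFE2L1, the transcription factor that raises proteasome genes when the proteasome is inhibited, ran from -6.58 to 1.80 (-2.34 ± 3.79, limma adjusted p = 0.575). Each of its fractions was above background on 2 arrays. Over all kept probes the mean of NFE2L1 was -0.83, and that of ZFAND5 was -0.56 where its brightest probe gave -1.08.

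The remaining 6 genes that the filter left out beside PSMB8 were PSMB3, PSMC3IP, PSMD3, PSMD6, PSMD8 and PSMG3, each with 1 probe above background on at most 2 arrays. PSMC3IP matches the rule by its letters only: it encodes a protein of meiotic recombination and is no proteasome subunit. Without it, 31 of 47 genes had a mean above 0 when no filter was applied.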

How the data were processed

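The files hold scanner intensities of both channels, which the authors deposited per array, with a second deposited table of log2 ratios. Scanner software gave the intensities per the file headers; the labels and headers used here name no other upstream step. The deposited log2 table correlated at r of 0.996 to 0.999 with loess ratios of A150 over A- made without background subtraction, which sets its direction; its slopes on these ran from 0.837 to 1.22, and its exact scaling stays unknown. It was used as an alternative.

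Spot means were background-corrected with normexp (offset 50) and normalised by loess within arrays in limma 3.58.1 (R 4.3.3), and signs were turned for the dye swap. A probe was kept when brighter, in either fraction on at least 3 arrays, than 153 negative-control spots (their mean plus 2 SD) (19453 probes). A gene was its brightest kept probe. Symbols came from the platform annotation. The lmFit and eBayes test against 0 was adjusted by Benjamini-Hochberg over all genes. Of these steps only this adjusted test was tried on simulated ratios. The series text describes separate pools with 1 array each, so p-values measure the spread of pools and arrays together. The number of arrays limits the precision.

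Per-array values are given for members with 1 sign on all arrays, for PSMB5 to PSMB10, PSMD14, PSMF1 and POMP, and for the highest and lowest mean of each subgroup; of partner genes, for those with 1 sign on all arrays and the smallest p on each side. Values of other members were added after they were seen. The members and lists were chosen with earlier results of these data known. Alternatives were other background, normalisation, spot, filter and probe choices, a dye term, no moderation, the deposited ratios, and each array left out.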

Additional observations from a re-analysis of the deposited data

How the results depend on the processing

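The proteasome median kept its direction, between 0.30 and 0.67, under every alternative run. Without normalisation within arrays the median of all genes shifted to -0.38, while that of the proteasome gene means was 0.50. Of 7795 genes, limma then called 89 toward A150 and 49 toward A-, and it called 300 and 355 probes. Among the 41 members it called 2, PSMA6 (limma adjusted p = 0.0473) and PSMB7 (limma adjusted p = 0.0417). The 0 genes called otherwise became 1 toward A- when both fractions had to exceed background on every array, and 1 with the deposited ratios. Probes called numbered 2 toward A150 and 30 toward A- with spot medians, and 116 and 128 with both fractions above background. The 12 probes called were toward A- and became 0 without background subtraction, with median centring, without the filter, with a dye term, with the deposited ratios, without moderation and with any 1 array left out (0 to 0). Members toward A150 at an unadjusted p under 0.05 were 11, or 26.8% beside 9.72% of all genes. When both fractions had to be above background, they were 2 of the 8 left, beside 18.8% of all genes. Of these 8, 6 had a mean above 0, beside 58.9% of all genes. Leaving out arrays gave 8 to 11. The shares of all genes in the fits with an array left out, with median centring and without normalisation are not given here. The 1 member toward A-, PSMD11, became 0 without background subtraction, with both fractions above background, with the dye term and with the deposited ratios, and 2 members with median centring or no normalisation. Leaving out arrays gave a count of 0 to 1, with 0 without array 4. PSMD11 itself was under 0.05 only without array 2 (limma unadjusted p = 0.0134). The ATPase median of 0.51 was 0.35 without background subtraction, 0.96 with median centring, 0.62 without normalisation and 0.32 with spot medians. It was 0.87 with both fractions above background, 0.35 with the deposited ratios and 0.37 with the mean of kept probes. Without the filter it was 0.66, only because PSMC3IP, which is no proteasome subunit, was counted with the 6 ATPases. The ratios of those 6 were unchanged there. The core median was 0.80 with both fractions above background, where the non-ATPase median was 0.41, and the order of the 2 turned. Over all alternatives the core median ran from 0.085 (without array 3) to 0.80, the non-ATPase median from 0.41 to 1.08, and the activator or assembly median from 0.039 (without normalisation) to 0.43. PSMB10 changed sign to 0.13 with spot medians and 0.00055 with the deposited ratios, and ran from -0.12 to 0.15 with 1 array left out. The causes were not tested. Leaving out 1 array changed the sign of 9 members, PSMB10 among them; adding SEM1 to the lid and PAAF1 to the assembly factors was chosen after seeing the data. No activator or assembly gene remained with both fractions above background. The test of ratios within arrays is already the paired comparison of the 2 fractions of each pool.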
